A study of Rattus norvegicus with 16 samples.

Results

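The proteasome is the protease complex that degrades ubiquitin-tagged proteins, and the genes of its constitutive subunits were followed here in sorted rat microglia. Members were the rows of the deposited symbol matrix named Psma, Psmb, Psmc or Psmd plus a number, leaving out the inducible subunits Psmb8, Psmb9 and Psmb10. This rule found 33 of 21842 symbols, each on a single Ensembl gene ID, and 32 of the 33 were among the 13608 IDs that passed the filter on low counts. The member that did not pass was Psma8, the testis form of an alpha subunit. Psma8 had 0 counts in all 16 libraries, which allows a level of up to 0.00784 CPM (counts scaled to a common library size; from a limit of 3 counts over the total of all libraries, counting error only).

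The proteasome has a core particle and a regulatory particle. In the core, outer rings of alpha subunits (Psma genes) gate the entry and inner rings of beta subunits (Psmb genes) hold the proteolytic sites, which in the constitutive form belong to Psmb5, Psmb6 and Psmb7. The regulatory particle caps the core: its base holds the ATPases that unfold the substrate (Psmc genes) with scaffold and ubiquitin-binding subunits, and its lid holds the deubiquitinase Psmd14. In macrophages, the lineage to which microglia belong, interferon-gamma is known to induce alternative catalytic subunits, and the resulting immunoproteasome is known for making peptides for MHC class I.

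RNA was sequenced in bulk from microglia of male Wistar (Hsd/Cpb:WU) rats, gated from whole brains on absent DAPI, high CD11b and intermediate CD45. The 4 groups of 4 samples were sham-irradiated rats given PBS, sham-irradiated rats given lipopolysaccharide (LPS, an outer membrane molecule of Gram-negative bacteria that macrophages sense), and rats irradiated with 14 Gy of X-rays and given PBS or LPS. Injections were intraperitoneal and came 6 weeks after the irradiation or sham procedure. The sources used here do not give ages, the irradiated field or the time from injection to sampling. Animals are not identified in the labels, and p-values therefore rest on the spread between samples, which may be technical.

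Totals ranged from 14309458 to 25015047 counts in 13 libraries, and irradiated LPS libraries 2, 3 and 4 held 62745496, 32783913 and 37116504 counts. Tested members had 340 to 16412 counts per library. The summed level of 10 microglial markers was 45200 to 48700 CPM in sham PBS, 36000 to 40000 in sham LPS, 21700 to 27300 in irradiated PBS and 15700 to 20300 in irradiated LPS libraries. In the same order, 6 border-associated macrophage markers summed to 304 to 350, 294 to 584, 727 to 966 and 1110 to 1560 CPM, and 5 monocyte markers to 73.2 to 141, 233 to 297, 137 to 234 and 360 to 621 CPM. The 7 T and NK cell markers summed to 4.18 to 10.2, 6.92 to 40.0, 29.6 to 62.2 and 83.0 to 176 CPM. Irradiated LPS library 1 held 1810 CPM over 6 neutrophil markers, of which Mpo had 0 counts in every library, and the other 15 libraries held 9.55 to 307 CPM. Endothelial markers (4 of 6 in the files) summed to 312 to 385, 272 to 321, 132 to 177 and 123 to 198 CPM in the order of groups above, astrocyte markers to 542 to 946, 261 to 610, 361 to 529 and 170 to 347 CPM, and B cell markers to 1.54 to 2.76, 1.09 to 3.41, 3.61 to 8.23 and 4.17 to 23.2 CPM. Over all libraries, oligodendrocyte markers summed to 402 to 876, neuronal markers to 7.51 to 82.9, and red cell markers (1 of 4 in the files) to 0 to 3.23 CPM. Few genes carried some of these sums. Over all libraries Slc1a3 had 151169 counts, and the other astrocyte markers at most 4276 each. Cnp had 172249 counts, and the other oligodendrocyte markers at most 28992 each. Pecam1 and Tek had 51355 and 33536 counts, and the other endothelial markers at most 2128 each. The marker sums move with the groups and their part in the results was not tested. In bulk samples, fewer cells of a type and less RNA per cell cannot be told apart.

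Promoters of 6 members on which the results turn are shown first. Psma6 and Psmc1 had the largest called LPS responses, Psmb2 and Psmb4 the largest called differences between irradiated and sham rats, Psmb5 was the catalytic subunit called higher after irradiation with PBS, and Psmd2 was the member called lower. Each sequence is the 250 bases before the annotated start, 5′ to 3′ on the strand of the gene, from RefSeq on build GRCr8; the counts were made on another build. Capitals mark matches on either strand to 5 motifs: the antioxidant response element core TGANNNNGC, the interferon-stimulated response element (GAAA, any 2 bases, GAAA), the gamma-activated site TTCNNNGAA, CCAAT and the E-box CACGTG.
Psma6 (chr6:78514097-78514346, plus strand): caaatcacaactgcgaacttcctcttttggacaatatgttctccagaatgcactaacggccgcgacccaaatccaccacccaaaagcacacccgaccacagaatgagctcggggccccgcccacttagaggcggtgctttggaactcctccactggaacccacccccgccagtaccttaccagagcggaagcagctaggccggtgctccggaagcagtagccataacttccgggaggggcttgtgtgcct
Psmc1 (chr6:125122247-125122496, plus strand): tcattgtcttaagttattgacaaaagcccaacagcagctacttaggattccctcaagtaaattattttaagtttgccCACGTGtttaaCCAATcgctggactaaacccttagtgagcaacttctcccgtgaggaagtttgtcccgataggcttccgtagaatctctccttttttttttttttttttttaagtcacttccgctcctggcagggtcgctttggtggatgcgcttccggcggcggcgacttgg
Psmb2 (chr5:144254808-144255057, plus strand): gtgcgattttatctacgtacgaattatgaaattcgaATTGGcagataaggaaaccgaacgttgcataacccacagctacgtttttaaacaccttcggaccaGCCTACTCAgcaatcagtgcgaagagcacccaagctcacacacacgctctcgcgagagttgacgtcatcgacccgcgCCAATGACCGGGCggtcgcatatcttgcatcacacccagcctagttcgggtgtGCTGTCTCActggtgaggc
Psmb4 (chr2:185134562-185134811, minus strand): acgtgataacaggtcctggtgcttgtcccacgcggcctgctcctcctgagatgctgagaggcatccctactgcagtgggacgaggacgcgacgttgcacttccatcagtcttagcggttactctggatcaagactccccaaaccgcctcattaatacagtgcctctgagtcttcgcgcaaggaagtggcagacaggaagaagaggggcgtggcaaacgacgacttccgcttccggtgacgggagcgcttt
Psmb5 (chr15:32047380-32047629, minus strand): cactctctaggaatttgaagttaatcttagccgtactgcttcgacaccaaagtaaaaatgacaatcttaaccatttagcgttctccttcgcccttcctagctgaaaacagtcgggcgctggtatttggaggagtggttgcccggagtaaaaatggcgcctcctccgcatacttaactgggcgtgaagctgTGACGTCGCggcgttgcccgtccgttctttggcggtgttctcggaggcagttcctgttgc
Psmd2 (chr11:93763389-93763638, minus strand): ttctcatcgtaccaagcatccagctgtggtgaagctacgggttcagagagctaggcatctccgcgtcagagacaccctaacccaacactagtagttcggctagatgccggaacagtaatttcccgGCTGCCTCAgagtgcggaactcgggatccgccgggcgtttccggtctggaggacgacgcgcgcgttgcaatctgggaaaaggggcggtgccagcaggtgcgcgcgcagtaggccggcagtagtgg

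The sequence table matched 29 of the 33 members, and not Psma7, Psmd6, Psmd12 and Psmd14. The antioxidant response element core, which heterodimers of Nfe2l2 and small Maf proteins are known to bind, matched in 13 of 29 members (44.8%) and in 34.7% of all 33469 promoters of this length. Among the promoters shown it matched at 3 places in Psmb2, of which 1 overlaps a CCAAT match, at 1 place each in Psmb5 and Psmd2, and not in Psma6, Psmb4 or Psmc1. CCAAT matched in 14 of 29 members (48.3%, against 34.0% of all promoters), Psmb2 and Psmc1 among them. The interferon-stimulated response element matched in Psma4, Psmb3 and Psmd7 (3 of 29, 10.3% against 3.41%). The gamma-activated site matched in Psmc6, Psmd3 and Psmd7 (10.3% against 7.67%), and the E-box in Psma4, Psmb3 and Psmc1 (10.3% against 5.59%). A match describes letters in this window and shows no binding.

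LPS was first compared with PBS in sham-irradiated rats, to see how the subunit genes respond to an innate immune stimulus. Of 32 tested members 8 rose (25.0%), against 15.2% of all genes tested, and 0 fell, against 14.5% of all genes (edgeR quasi-likelihood test, adjusted p under 0.05). No member was lower at an unadjusted p under 0.05 either (0), and DESeq2 and limma voom also called 0 lower. The largest called increases were in Psmc1, an ATPase of the base, at 0.56 ± 0.09 (log2 fold change ± SE, 4 libraries per group throughout; 1.48-fold), and in Psma6, an alpha ring subunit, at 0.53 ± 0.09 (1.44-fold). The median log2 fold change was 0.189 over the members and -0.0103 over all genes.

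Psmc1 stood at 82.8, 81.3, 89.4 and 83.2 CPM (scaled with TMM factors) in sham PBS libraries 1 to 4 and at 113, 113, 141 and 131 CPM in sham LPS libraries 1 to 4. In irradiated rats it stood at 97.9, 85.5, 85.9 and 87.0 CPM with PBS and at 121, 129, 133 and 143 CPM with LPS. All 8 LPS libraries lay above all 8 PBS libraries for this ATPase gene. Psma6 had 144, 125, 136 and 143 CPM in sham PBS and 183, 183, 198 and 226 CPM in sham LPS libraries. Its levels in irradiated rats were 134, 156, 155 and 168 CPM with PBS and 219, 237, 267 and 233 CPM with LPS. PBS and LPS libraries of Psma6 did not overlap in either setting, and sham LPS library 4 lay within the irradiated LPS range.

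By role, 2 of 7 tested alpha subunits rose in sham rats given LPS, Psma6 and Psma3 (0.27 ± 0.08, from 157 ± 5.59 to 190 ± 17.5 CPM, mean ± SD). Of the 4 non-catalytic beta subunits 1 rose, Psmb4 at 0.44 ± 0.09, while Psmb3 had the lowest value of all members at -0.09 ± 0.09 (edgeR adjusted p = 0.484). None of the 3 catalytic subunits passed the test. Of the 6 ATPases 2 rose, Psmc1 and Psmc6 (0.41 ± 0.11), and of the 3 other base subunits 0. In the lid 3 of 8 rose: Psmd12 (0.50 ± 0.10), Psmd13 (0.30 ± 0.09) and Psmd6 (0.29 ± 0.08). The groups did not overlap for these 8 called members and for no other, a pattern seen in this direction in 14.6% of all genes.

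The sham LPS libraries differed among themselves across the family. Summed over the members they held 3773, 3718, 4201 and 4173 CPM without TMM factors in libraries 1 to 4, against 3391 to 3705 in sham PBS, so that libraries 1 and 2 lay just above the sham PBS range. With TMM factors the sums were 3793, 3860, 4554 and 4547 CPM, against 3448 to 3831 CPM, and library 1 lay inside the range. Without sham LPS library 1, 13 members were called higher in place of 8.

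**Figure D1:**
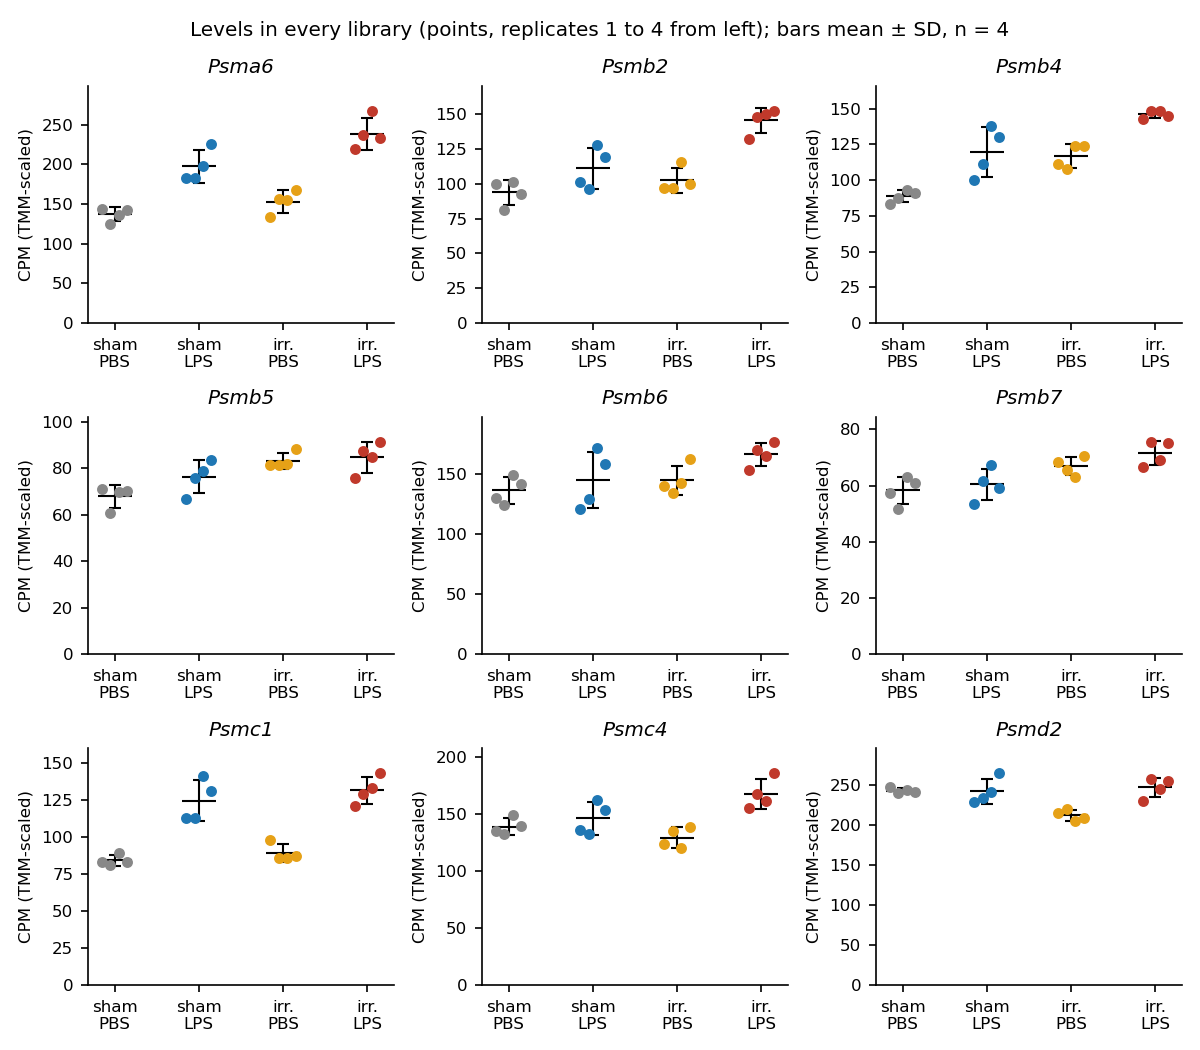
Levels of 9 members in every library (y axis, TMM-scaled CPM, starting at 0) by group (x axis). Points are replicates 1 to 4 from left to right and bars the mean ± SD of 4 libraries; Psmc1 and Psma6 stood higher in both LPS groups, and Psmb5 stood higher in irradiated PBS than in sham PBS libraries.

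In irradiated rats given LPS, 19 of 32 members rose against irradiated rats given PBS (59.4%), compared with 17.0% of all genes, and 0 fell, compared with 14.5% (edgeR). No member was lower at an unadjusted p under 0.05 (0), and DESeq2 and limma voom called 0 lower. Psma6 rose by 0.64 ± 0.09 (1.56-fold) and Psmc1 by 0.56 ± 0.09 (1.48-fold), followed by Psmb2 (0.50 ± 0.10), Psmd12 (0.50 ± 0.10) and Psma3 (0.50 ± 0.08). The median over the members was 0.264, against -0.0213 over all genes. Scaled by library totals alone, the median of all genes moved by -0.118, 12 members were called higher, and Psmb3 was called lower.

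Of the 19 increases 13 were among the 18 tested regulatory and chaperone genes and 6 among the 14 tested core genes. The median log2 fold changes of these parts were close, at 0.264 and 0.246. In the base 5 of 6 ATPases rose: Psmc1, Psmc6 (0.47 ± 0.11), Psmc4 (0.38 ± 0.09), Psmc2 (0.25 ± 0.08) and Psmc5 (0.25 ± 0.08), while Psmc3 reached 0.18 ± 0.08 (edgeR adjusted p = 0.0942). The scaffold Psmd1 rose by 0.46 ± 0.08, from 135 ± 9.46 to 185 ± 10.7 CPM, and the scaffold Psmd2 by 0.22 ± 0.07. The ubiquitin receptor Psmd4 stood at 0.16 ± 0.09 (edgeR adjusted p = 0.2). In the lid 6 of 8 rose: Psmd12, Psmd13 (0.38 ± 0.09), Psmd7 (0.33 ± 0.09), Psmd11 (0.31 ± 0.08), Psmd14 (0.27 ± 0.10) and Psmd6 (0.21 ± 0.08). Psmd8 (0.13 ± 0.10), Psmd3 (0.07 ± 0.29) and the base assembly chaperone Psmd5 (0.17 ± 0.10) did not pass. The calls of Psmd6 and Psmd14 lay near the threshold and were lost in 23 and 14 of 28 alternative fits.

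In the core particle 4 of 7 tested alpha subunits rose, Psma6, Psma3, Psma2 (0.38 ± 0.10) and Psma5 (0.35 ± 0.10), and 2 of 4 non-catalytic beta subunits, Psmb2 and Psmb4 (0.32 ± 0.09). Psmb2 had 99.8, 81.3, 101 and 93.0 CPM in sham PBS and 101, 96.3, 128 and 119 CPM in sham LPS libraries. It had 97.0, 97.1, 116 and 100 CPM in irradiated PBS and 132, 148, 150 and 152 CPM in irradiated LPS libraries. The irradiated LPS libraries lay above every other library for Psmb2, whereas sham LPS overlapped with sham PBS (0.24 ± 0.10, edgeR adjusted p = 0.0838). The ATPase gene Psmc4 had 135, 133, 149 and 140 CPM in sham PBS and 136, 133, 163 and 154 CPM in sham LPS libraries. With irradiation it had 124, 135, 120 and 139 CPM after PBS and 156, 168, 162 and 186 CPM after LPS. The LPS and PBS libraries of Psmc4 were apart in irradiated rats and overlapped in sham rats.

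The catalytic subunits did not pass the test for LPS in either setting. Psmb5, with chymotrypsin-like activity, changed by 0.17 ± 0.09 in sham rats (95% interval -0.018 to 0.352) and by 0.03 ± 0.09 in irradiated rats (-0.158 to 0.21). Psmb6, with caspase-like activity, changed by 0.09 ± 0.10 (-0.131 to 0.308) and 0.20 ± 0.10 (-0.0189 to 0.419). Psmb7, with trypsin-like activity, changed by 0.05 ± 0.09 (-0.139 to 0.239) and 0.10 ± 0.09 (-0.0886 to 0.287). All 6 intervals include 0.

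**Figure D2:**
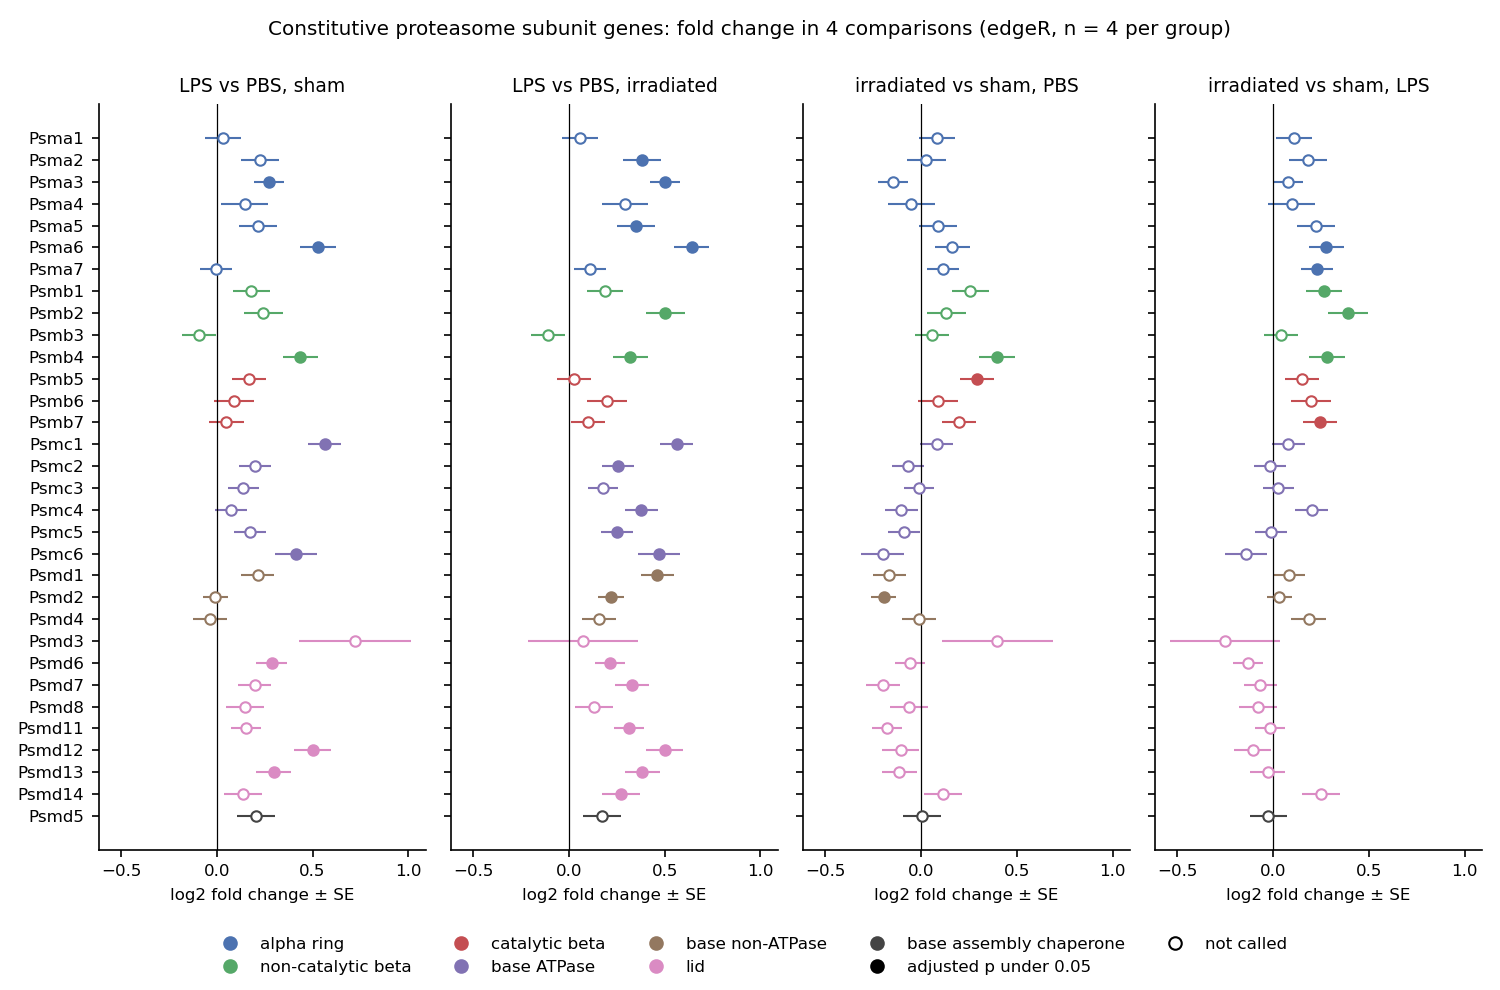
Log2 fold change ± SE (x axis) of the 32 tested members (y axis, coloured by role) in the 4 pairwise comparisons, with filled points for an edgeR adjusted p under 0.05. Filled points lie to the right of 0 in both LPS comparisons, 8 in sham and 19 in irradiated rats, and in the comparison of irradiated with sham rats given LPS all 6 are alpha or beta subunits.

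The LPS responses of sham and irradiated rats were compared directly through the interaction term. Of 32 members 0 were called, against 1.26% of all genes (edgeR). At an unadjusted p under 0.05 there were 2 of 32 members, against 11.9% of all genes. DESeq2 and limma voom also called 0 members. Psmc4 had the smallest p, with a difference of 0.30 ± 0.12 (95% interval 0.0506 to 0.559, edgeR adjusted p = 0.3). The higher count of calls in irradiated rats is therefore not shown to be a larger response. All 8 members called in sham rats were also called in irradiated rats, which is 100% of the sham list and 42.1% of the irradiated list. The groups compared share no libraries, but the tests came from the same fit with a shared estimate of spread. The lists are therefore not independent, and the same overlap over all genes is not given here. With TMM factors the difference was positive for 23 of 32 members, against 51.2% of all genes, and with library totals for 16 of 32 members. The median difference with TMM factors was 0.0839, against 0.0102 over all genes.

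For 31 of 32 members the 95% interval of the difference lay within 1 log2 unit of 0 on both sides. The exception was Psmd3, a lid subunit singled out after its values were seen, with an interval of -1.52 to 0.223. A margin of 1 log2 unit is wider than the largest LPS response of any member (0.722 in sham and 0.642 in irradiated rats). Intervals within it therefore do not show that the responses were alike. Psmd3 had 20.7, 39.6, 39.8 and 55.3 CPM in sham PBS and 40.3, 71.0, 76.0 and 69.1 CPM in sham LPS libraries. It had 43.9, 46.0, 61.4 and 53.3 CPM in irradiated PBS and 53.2, 29.2, 68.0 and 65.4 CPM in irradiated LPS libraries. Its groups overlapped in every pairwise comparison, and it passed no test, although its sham LPS value (0.72 ± 0.29) was the highest of all members.

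**Figure D3:**
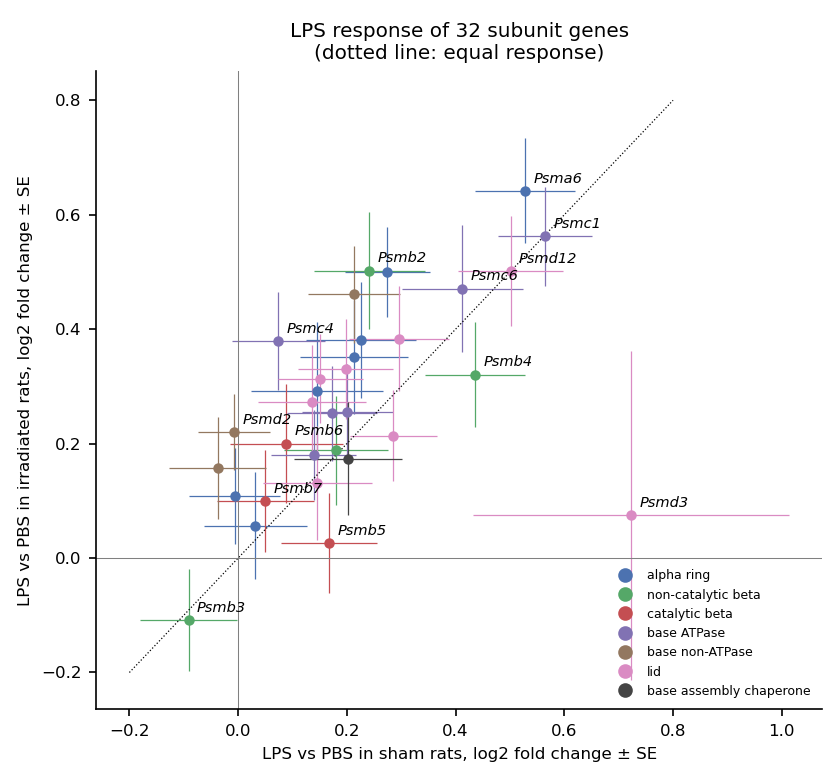
LPS response of each of the 32 tested members in sham rats (x axis) and in irradiated rats (y axis), as log2 fold change ± SE, coloured by role. Psmc1, Psmd12 and Psma6 lie far from 0 on both axes, Psmb2 and Psmc4 are larger on the y axis, Psmb3 lies below 0 on both axes, and Psmd3 has the widest error bars.

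Irradiated and sham rats given PBS were compared to see what differed 6 weeks after irradiation without a further stimulus. Of 32 members 2 rose (6.25%), against 11.5% of all genes, and 1 fell (3.12%), against 9.91% (edgeR). In either direction 3 were called, against 21.4% of all genes. Psmb4, a non-catalytic beta subunit, rose by 0.40 ± 0.09 (1.32-fold) and the catalytic Psmb5 by 0.29 ± 0.09 (1.23-fold). Psmd2 fell by 0.20 ± 0.07 on the log2 scale. The median was -0.0031 over the members and -0.00461 over all genes. With library totals the median of all genes moved by 0.156, 9 members were called higher and 0 lower, and the median of the members relative to all genes was 0.001.

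Psmb4 had 83.5, 87.1, 93.2 and 90.7 CPM in sham PBS and 111, 108, 124 and 124 CPM in irradiated PBS libraries. With LPS it had 99.9, 111, 138 and 130 CPM in sham and 143, 148, 148 and 145 CPM in irradiated rats. The groups of Psmb4 did not overlap in any of the 4 pairwise comparisons. Psmb5 had 71.2, 60.7, 69.7 and 70.1 CPM in sham PBS and 81.4, 81.2, 82.0 and 88.2 CPM in irradiated PBS libraries. With LPS it had 66.7, 75.9, 78.7 and 83.7 CPM in sham and 75.6, 87.5, 84.6 and 91.1 CPM in irradiated rats. The groups of Psmb5 were apart with PBS and overlapped with LPS. Its call was lost without sham PBS library 2, without irradiated PBS library 4 and with no filter on low counts, and in each of these fits 1 member was higher.

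Psmd2 had 248, 240, 244 and 242 CPM in sham PBS and 216, 220, 205 and 209 CPM in irradiated PBS libraries. With LPS it had 229, 234, 242 and 265 CPM in sham and 231, 258, 246 and 255 CPM in irradiated rats. The irradiated PBS libraries lay below all others for this scaffold gene. The call was lost in 15 of 28 alternative fits, where 0 members were lower: without any single one of the sham PBS or irradiated PBS libraries and without irradiated LPS library 4 among them. The groups did not overlap for 3 members that were higher, Psmb1, Psmb4 and Psmb5, against 13.8% of all genes, and for 3 that were lower, Psmd2, Psmd7 and Psmd11, against 12.9%.

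Core and regulatory subunits lay on different sides of 0 with TMM factors. Of 14 tested alpha and beta genes 12 had a positive value (median 0.102), against 49.5% of all genes. Of 18 Psmc and Psmd genes 14 had a negative value (median -0.0793). With library totals 27 of all 32 members were positive. All 7 beta subunits were positive, with Psmb1 at 0.26 ± 0.10 (edgeR adjusted p = 0.0648) and Psmb7 at 0.20 ± 0.09 (edgeR adjusted p = 0.136). Among regulatory genes Psmc6 (-0.20 ± 0.11), Psmd7 (-0.20 ± 0.09) and Psmd11 (-0.18 ± 0.08) had values near that of Psmd2 and did not pass.

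The ratio of core to regulatory counts within a library needs no scaling factor. It was computed after these values were seen and is given as a description with no test. It was 0.831, 0.788, 0.806 and 0.820 in sham PBS and 0.775, 0.791, 0.805 and 0.798 in sham LPS libraries. In irradiated rats it was 0.894, 0.917, 0.944 and 0.971 with PBS and 0.899, 0.938, 0.875 and 0.896 with LPS. All 8 irradiated libraries lay above all 8 sham libraries, and PBS and LPS libraries overlapped within each setting. The core sum was 1494 to 1684 CPM in sham PBS and 1612 to 1882 CPM in irradiated PBS libraries, and the regulatory sum 1895 to 2089 and 1803 to 1939 CPM. Of the marker sums given above, those of microglia, border-associated macrophages, B cells and endothelial cells also separate all 8 irradiated from all 8 sham libraries. The T and NK cell sum separates irradiated from sham libraries within PBS and within LPS, the astrocyte sum within PBS, and the monocyte sum within LPS. The part of these sums in this ratio was not tested.

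**Figure D4:**
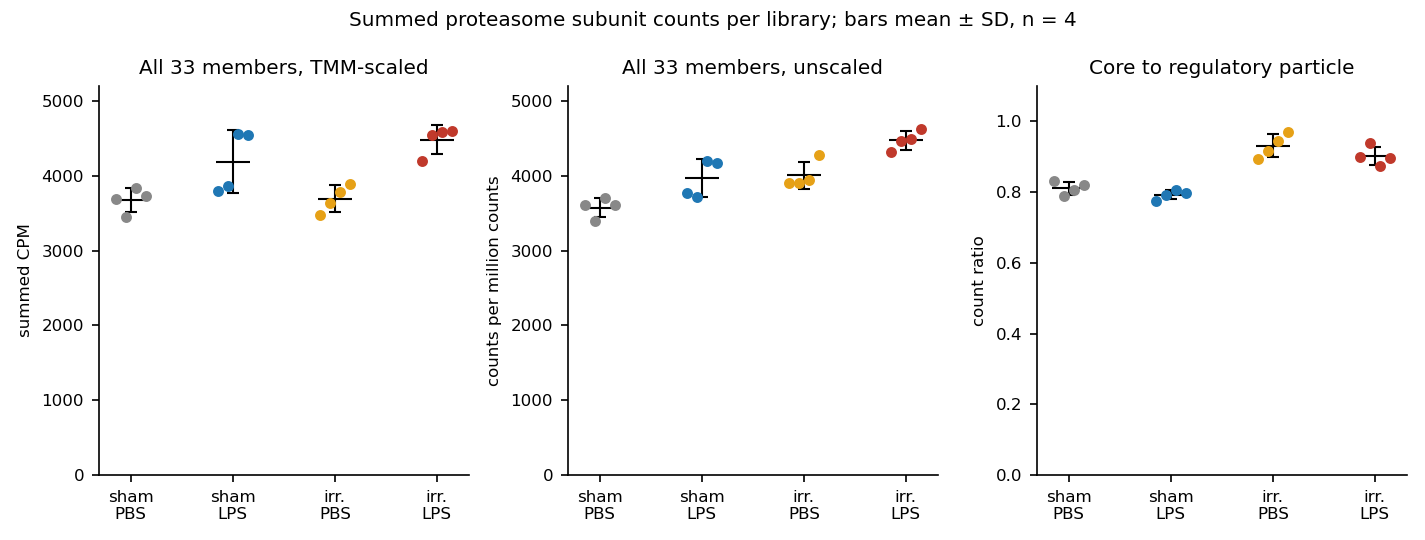
Summed counts of the 33 members in each library and the count ratio of core to regulatory subunits, by group, with points for replicates 1 to 4 and bars for mean ± SD. The ratio was at least 0.875 in irradiated and at most 0.831 in sham libraries, and the sums were higher in irradiated LPS than in irradiated PBS libraries.

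Irradiated and sham rats were also compared after LPS. Of 32 members 6 rose (18.8%), against 15.1% of all genes, and 0 fell, against 12.6% (edgeR). No member was lower at an unadjusted p under 0.05 (0), and DESeq2 and limma voom called 0 lower. The 6 were core subunits: Psmb2 (0.39 ± 0.10, 1.31-fold), Psmb4 (0.28 ± 0.09), Psma6 (0.28 ± 0.09), Psmb1 (0.27 ± 0.10), Psmb7 (0.25 ± 0.09) and Psma7 (0.23 ± 0.08). With TMM factors all 14 core genes had a positive value (median 0.212), against 51.1% of all genes. Of 18 regulatory and chaperone genes 11 had a negative value (median -0.0159). With library totals 27 of all 32 members were positive. Of 32 members 4 were higher without overlap of the groups, against 15.0% of all genes. These were Psma7, Psmb1, Psmb2 and Psmb4, all among the 6 called. In the other direction the groups did not overlap for Psmd6, against 11.7% of all genes.

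Most of these calls lay close to the threshold, and single libraries moved their number. It was 1 without sham LPS library 1 or 2 or irradiated LPS library 3, and 2 without irradiated LPS library 2 or 4. It was 3 without sham PBS library 1, 3 or 4 or irradiated PBS library 2 or 4, and 9 without sham LPS library 3. With library totals 13 members were higher. Psmb2 was called in all 28 alternative fits, with values from 0.329 to 0.469.

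The catalytic Psmb7 had 57.5, 51.8, 63.1 and 60.9 CPM in sham PBS and 53.5, 61.7, 67.2 and 59.2 CPM in sham LPS libraries. It had 68.3, 65.7, 63.0 and 70.4 CPM in irradiated PBS and 66.8, 75.4, 69.1 and 75.2 CPM in irradiated LPS libraries. Sham LPS library 3 reached into the irradiated LPS range, and the Psmb7 call was lost in 18 of 28 alternative fits. The catalytic Psmb6 had 130, 124, 149 and 141 CPM in sham PBS and 121, 129, 171 and 158 CPM in sham LPS libraries. It had 140, 134, 142 and 162 CPM in irradiated PBS and 153, 170, 165 and 176 CPM in irradiated LPS libraries. Psmb6 overlapped in every pairwise comparison and passed no test with TMM factors in the main fit. With library totals it was called higher after irradiation with LPS (0.28 ± 0.09, edgeR adjusted p = 0.034).

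Each constitutive catalytic subunit was then set against the inducible subunit that takes its place, as a count ratio within a library. The ratio of Psmb9 to Psmb6 was 0.332, 0.326, 0.293 and 0.332 in sham PBS and 0.387, 0.398, 0.397 and 0.304 in sham LPS libraries. In irradiated rats it was 0.513, 0.465, 0.509 and 0.496 with PBS and 0.707, 0.589, 0.565 and 0.660 with LPS. Both irradiated groups lay above both sham groups, and irradiated LPS above irradiated PBS. The ratio was 1.54-fold higher after irradiation with PBS, 1.70-fold higher after irradiation with LPS, and 1.27-fold higher with LPS in irradiated rats.

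Each of these 3 differences had p = 0.0286 in an exact two-sided permutation test, the smallest p that 4 against 4 libraries allow. Adjusted with Benjamini-Hochberg over the 12 ratio tests it was 0.0857, so none of the 12 passed 0.05. The adjusted value was bound by the smallest possible p and the number of tests, and does not show that the ratios were alike. The ratio of Psmb8 to Psmb5 was 1.98, 2.20, 1.91 and 2.26 in sham PBS and 2.76, 2.42, 2.66 and 2.56 in irradiated PBS libraries (1.25-fold, exact permutation p = 0.0286, adjusted p = 0.0857). With LPS it was 2.34, 2.35, 2.49 and 1.91 in sham and 1.95, 3.28, 2.47 and 2.42 in irradiated rats. The groups of this pair were apart with PBS and overlapped in the other 3 comparisons. The ratio of Psmb10 to Psmb7 overlapped in all 4 comparisons, with folds of 0.929 to 1.01. Differences between the 3 pairs were not tested.

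**Figure D5:**
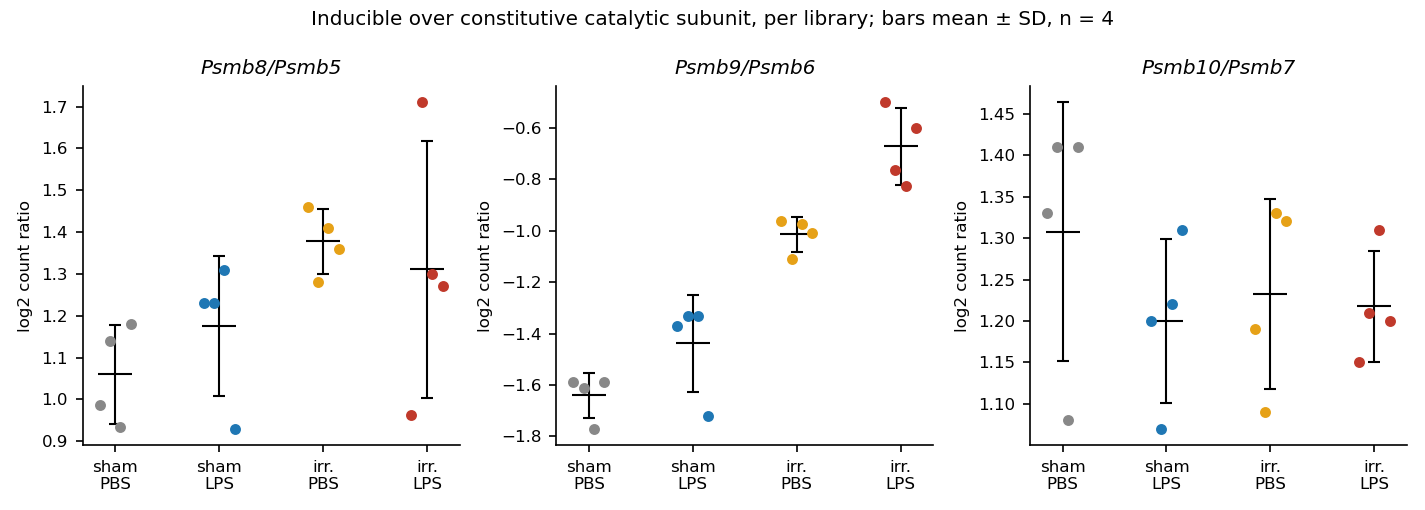
Log2 count ratio of each inducible catalytic subunit to its constitutive counterpart (y axis, with its own range in each panel) by group, with points for replicates 1 to 4 and bars for mean ± SD. Psmb9/Psmb6 was higher in the irradiated groups, Psmb8/Psmb5 was apart between sham PBS and irradiated PBS, and Psmb10/Psmb7 overlapped throughout.

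Other genes of the pathway were followed in lists (edgeR calls). Of all genes tested, 15.2% rose and 14.5% fell with LPS in sham rats, and 17.0% rose and 14.5% fell with LPS in irradiated rats. After irradiation with PBS 11.5% rose and 9.91% fell, and after irradiation with LPS 15.1% rose and 12.6% fell. Of the 3 immunoproteasome genes 0 were called with LPS in sham rats, where 1 had an unadjusted p under 0.05. Psmb9 (0.72 ± 0.12) and Psmb8 (0.61 ± 0.14) rose after irradiation with PBS, Psmb9 (0.54 ± 0.12) rose with LPS in irradiated rats, and Psmb9 (0.96 ± 0.12) and Psmb10 (0.26 ± 0.10, edgeR adjusted p = 0.0498) rose after irradiation with LPS. Among 5 activator and inhibitor genes, Psme1 and Psme2, whose products form the interferon-inducible cap, rose after irradiation with PBS (0.39 ± 0.08 and 0.37 ± 0.11) and with LPS (0.36 ± 0.08 and 0.65 ± 0.11). Psme2 also rose with LPS in irradiated rats (0.55 ± 0.11), and Psme3, which encodes a nuclear activator, with LPS in sham rats (0.98 ± 0.20).

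Of 5 tested core assembly chaperones 0 were called with LPS in sham and 0 in irradiated rats, with 2 and 1 lower and 0 and 1 higher at an unadjusted p under 0.05. Pomp, which is needed to complete the core, rose after irradiation with PBS (0.38 ± 0.10) and after irradiation with LPS (0.49 ± 0.10). Psmg1 was higher in irradiated than in sham rats given LPS (0.41 ± 0.12). Among 12 other particle subunits and associated proteins 4 rose and 1 fell with LPS in sham rats, and 3 rose and 1 fell in irradiated rats. Adrm1, a ubiquitin receptor of the base, rose in both (0.34 ± 0.08 and 0.35 ± 0.08), as did the deubiquitinase gene Usp14 (0.45 ± 0.11 and 0.58 ± 0.11). Uchl5, another deubiquitinase gene, fell by 0.59 ± 0.12 on the log2 scale in sham rats and was higher in irradiated than in sham rats after LPS (0.61 ± 0.12). Ubqln2, a shuttle factor gene, fell by 1.27 ± 0.32 with LPS in irradiated rats and by 1.23 ± 0.32 after irradiation with LPS. Sem1, a small lid subunit, rose after irradiation with PBS (0.43 ± 0.12) and with LPS (0.46 ± 0.12).

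Of 8 tested transcriptional control genes 4 rose and 1 fell with LPS in sham rats, and 4 rose and 1 fell in irradiated rats. Nfe2l2, which encodes the antioxidant regulator NRF2, rose by 1.75 ± 0.09 and 1.56 ± 0.09, and its partner Maff by 4.04 ± 0.61 and 5.29 ± 0.65. Maff was near the floor with PBS, at 0.046 to 2.04 CPM in sham and 0.277 to 0.481 CPM in irradiated rats. With LPS it had 9.34 to 13.3 and 10 to 19.4 CPM. The size of its fold changes is therefore uncertain, and 0 of the 8 genes were called for the difference between LPS responses. Ngly1, whose product processes the Nfe2l1 protein, fell by 0.57 ± 0.15 and 0.47 ± 0.15 on the log2 scale. Nfe2l1, known for raising proteasome genes when proteasomes are inhibited, was singled out after its values were seen and did not pass (0.35 ± 0.16 and 0.10 ± 0.16, edgeR adjusted p = 0.102 and 0.698). After irradiation with PBS Nfe2l2 rose by 0.27 ± 0.08. The small Maf gene Mafg fell by 0.37 ± 0.09 after irradiation with PBS and by 0.54 ± 0.09 after irradiation with LPS.

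Of 5 tested genes for ubiquitin and its activation 0 were called with LPS in sham rats, where 1 had an unadjusted p under 0.05. Rps27a, which encodes ubiquitin fused to a ribosomal protein, rose after irradiation with PBS (0.81 ± 0.08) and with LPS (0.68 ± 0.08); reads of its processed copies may be split between genes. Uba1, a ubiquitin-activating enzyme gene, rose with LPS in irradiated rats (0.32 ± 0.09) and after irradiation with LPS (0.33 ± 0.09).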

How the data were processed

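The deposited values were raw counts per Ensembl gene ID for each of 16 libraries (4 per group, totals of 14309458 to 62745496), with a table of counts summed per symbol in which 0 of 349472 cells differed from the single files. Upstream tools were HTSeq 2.0.2, fastp 0.23.2 and FastQC 0.11.9 on build mRatBN7.2, per the submitters' processing notes. Reads of close gene copies may have been split: the aligner, annotation and strand setting are not stated in these sources (not given in the sources used here).

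A quasi-likelihood model with 1 coefficient per group was fitted over all 16 libraries with edgeR 4.0.16 in R 4.3.3, after filterByExpr and TMM scaling and with robust moderation. P-values were adjusted with Benjamini-Hochberg over the 13608 IDs tested with a threshold of 0.05. Each SE is the absolute log2 fold change divided by the square root of F. Count ratios used a pseudocount of 0.5 and exact permutation tests. Limits for a count of 0 cover counting error only. The scripts were tested on simulated data.

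Values in every library were given for the 3 catalytic subunits, for up to 2 called members with the largest change in each direction of a pairwise comparison (mean log2 CPM of at least 3), and for the member with the smallest interaction p. Of each pathway list up to 2 called genes per direction with the smallest p were named. Members and lists were chosen with earlier results of these data known. Alternatives were DESeq2 1.42.0, limma 3.58.1 voom, other scaling and filters, no robust moderation, a replicate block, fits of only the groups compared, and leaving out libraries. Promoters came from RefSeq on GRCr8 and no coordinates were converted. Psmd9, Psmd10, Psmb11 and Paaf1 were not analysed here, and some genes of the pathway lists are not reported here.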

Additional observations from a re-analysis of the deposited data

Results flagged for a closer look

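In 60 groups of 4 libraries, the highest or lowest library was checked for a gap to its neighbour that took up most of the range of the group, and 7 groups had one; chance gives about 1 in 20. Psmb2 stood at 116 CPM in irradiated PBS library 3, where the nearest library had 100 CPM and the farthest 97.0 CPM. Psmb5 stood at 60.7 CPM in sham PBS library 2, below the others at 69.7 to 71.2 CPM, and at 88.2 CPM in irradiated PBS library 4, above the others at 81.2 to 82.0 CPM. Both libraries bear on the Psmb5 call after irradiation, which was lost without either. Psmc1 stood at 97.9 CPM in irradiated PBS library 1, against 85.5 to 87.0 CPM in the others. The summed level of all members was 4197 CPM in irradiated LPS library 1, the library with the high neutrophil marker sum, against 4546 to 4605 CPM in the others. The ratio of Psmb9 to Psmb6 counts was 0.293 in sham PBS library 3, against 0.326 to 0.332 in the others, and 0.304 in sham LPS library 4, against 0.387 to 0.398 in the others.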

How the results depend on the processing

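Of 36 calls of a member in a pairwise comparison, 20 held in all 28 alternative fits, 16 were lost in at least 1, and 0 reversed. With library totals alone the number higher was 9 after irradiation with PBS (0 lower), 12 with LPS in irradiated rats (1 lower) and 13 after irradiation with LPS; of all calls, the share that was higher moved from 53.7% to 76.3% after irradiation with PBS, from 54.0% to 39.2% with LPS in irradiated rats and from 48.5% to 28.0% for the difference between LPS responses. After irradiation with PBS 0 members were lower with upper quartile factors, with no filter (1 higher), with a stricter filter, with only the groups compared, and without both irradiated libraries numbered 1. After irradiation with LPS the number higher was 1 with no filter, 1 with only the groups compared and 3 with no robust moderation. Leaving out 1 library at a time gave 7 to 13 members higher with LPS in sham rats, 15 to 19 with LPS in irradiated rats, 1 to 9 after irradiation with LPS, and 1 to 2 higher and 0 to 1 lower after irradiation with PBS. The members summed to 4004 CPM in irradiated PBS libraries on average without TMM factors, and to 3694 CPM with them. The labels do not say what a replicate number marks, and the libraries were not treated as paired because not every correlation of same-numbered libraries was over 0.1 (10 of 24, from -0.0887 to 0.405). As a hint from the data of a shared set, 22 of 24 were positive, the 6 between libraries numbered 1 were 0.102 to 0.405, and 11 of 16 libraries were closest to their own number. With the replicate block 10 members were higher with LPS in sham rats, 19 with LPS in irradiated rats, 3 (and 1 lower) after irradiation with PBS and 6 after irradiation with LPS, and 0 differed between LPS responses. DESeq2 called 11 members higher with LPS in sham rats. The cause of these changes was not tested.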
